A study of Arabidopsis thaliana with 9 samples.

Results

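The aliphatic glucosinolate genes are 10 Arabidopsis thaliana genes picked by gene identifier from the 33602 listed for each library: the regulators MYB28 and MYB29, the chain-elongation genes BCAT4, MAM1 and MAM3, the core genes CYP79F1, CYP79F2, CYP83A1 and SUR1, and the side-chain gene FMO GS-OX1. The rule uses no expression value, but these genes and the lists below were chosen with earlier results of these data known. RNA sequencing was run on seedlings 9 d old, grown on 1/2 MS medium with 2% sucrose, in 3 groups of 3 libraries. OE2 and OE1 are lines that overexpress CsGSTF1, a glutathione S-transferase gene of tea, and tt19-8 is a tt19 knock-out. The series title places CsGSTF1 in the rescue of tt19-8, but the labels do not name the background of OE1 and OE2, the promoter used, or whether replicates are separate cultures, so p-values measure only the spread between these libraries. No wild type was analysed here.

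Glucosinolates are sulfur-rich thioglucosides of the cabbage order that myrosinases break down into defence compounds when tissue is damaged. The aliphatic class starts from methionine. BCAT4 removes its amino group, MAM enzymes lengthen the chain, CYP79F enzymes turn the elongated amino acid into an aldoxime, CYP83A1 oxidises the aldoxime, sulfur is added from glutathione, SUR1 cleaves the conjugate, and FMO GS-OX enzymes then oxidise the sulfur of the side chain. MYB28 and MYB29 activate most of these genes together with MYC factors. SUR1 also serves the indole class, which starts from tryptophan.

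In OE2 seedlings 3 of the 9 genes that could be tested fell relative to tt19-8, namely MYB28, MAM3 and SUR1, and no gene of the set rose; of all tested genes 19% were called and 14.5% were called lower. All 3 calls ended when any single OE2 library, or tt19-8 replicate 1 or 2, was left out. Median-ratio scaling left only the SUR1 call, and quantile normalization left none of them. In OE1 seedlings none of the 9 passed the test, and all 9 estimates lay below 0, CYP79F1 barely so and above 0 after median-ratio scaling. Between OE2 and OE1 none of the 9 passed in the fit that does not pair libraries. With the replicate number as a block, MYB28, MAM1, MAM3, CYP79F2, SUR1 and FMO GS-OX1 were called lower in OE2. So were 55.7% of all genes tested in that fit. CYP79F1 was at nearly the same level in the 3 groups, with averages (± SD over 3 libraries) of 1.94 ± 0.860 FPKM in OE2 seedlings, 1.96 ± 0.879 FPKM in OE1 seedlings and 1.91 ± 0.507 FPKM in tt19-8 seedlings. FPKM divides fragments by gene length and by the library total, so levels of different genes can be compared per length.

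Libraries of 2 kinds stand apart, and both touch the results. The OE2 libraries follow the OE1 libraries of the same number. Deviations from the group mean, taken across all tested genes, correlated at r = 0.953, 0.959 and 0.957 between same-numbered OE2 and OE1 libraries, against -0.059 to 0.043 between either line and tt19-8. Among tested genes with an OE1 value above 0, the lowest ratio of OE2 to OE1 in libraries of the same number was 0.601. SOT18, a gene of the core pathway, was listed at 16.02, 19.37 and 21.01 FPKM in libraries 1, 2 and 3 of both lines. Whether the OE2 values are measurements separate from OE1 cannot be told from the files. This bears on every OE2 value and call below, and the 2 lines are not treated as independent evidence of each other. The fit, however, counts all 9 libraries as independent when it estimates the spread. Linked libraries thus enter that spread as if separate, and p-values against tt19-8 may be too small. Across genes of high mean level, the only ones compared, replicate 3 of tt19-8 lay closer to OE1 than to the other tt19-8 libraries. Its log2 ratio had an SD of 0.545 and 0.603 to tt19-8 replicates 1 and 2, and 0.298 to 0.369 to the OE1 libraries. Whether its label is right cannot be told from the files, so results that rest on it are also given without it. TT19, the knocked-out gene, was listed at 0.674 to 0.876 FPKM in OE2, 0 to 0.0769 FPKM in OE1, and at 0 to 0.113 FPKM in tt19-8. Depth read from the steps of low values was 47.8 to 54.4 M fragments in OE1 and 48.4 to 57.0 M in tt19-8, so that 3 counts in a gene of 1 kb correspond to 0.0526 to 0.0628 FPKM, for counting error only. OE2 values show no steps, so their depth is unknown. FPKM summed to 867529 to 912535 in OE2, 1032370 to 1079857 in OE1 and 1056688 to 1096075 in tt19-8.

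**Figure D1:**
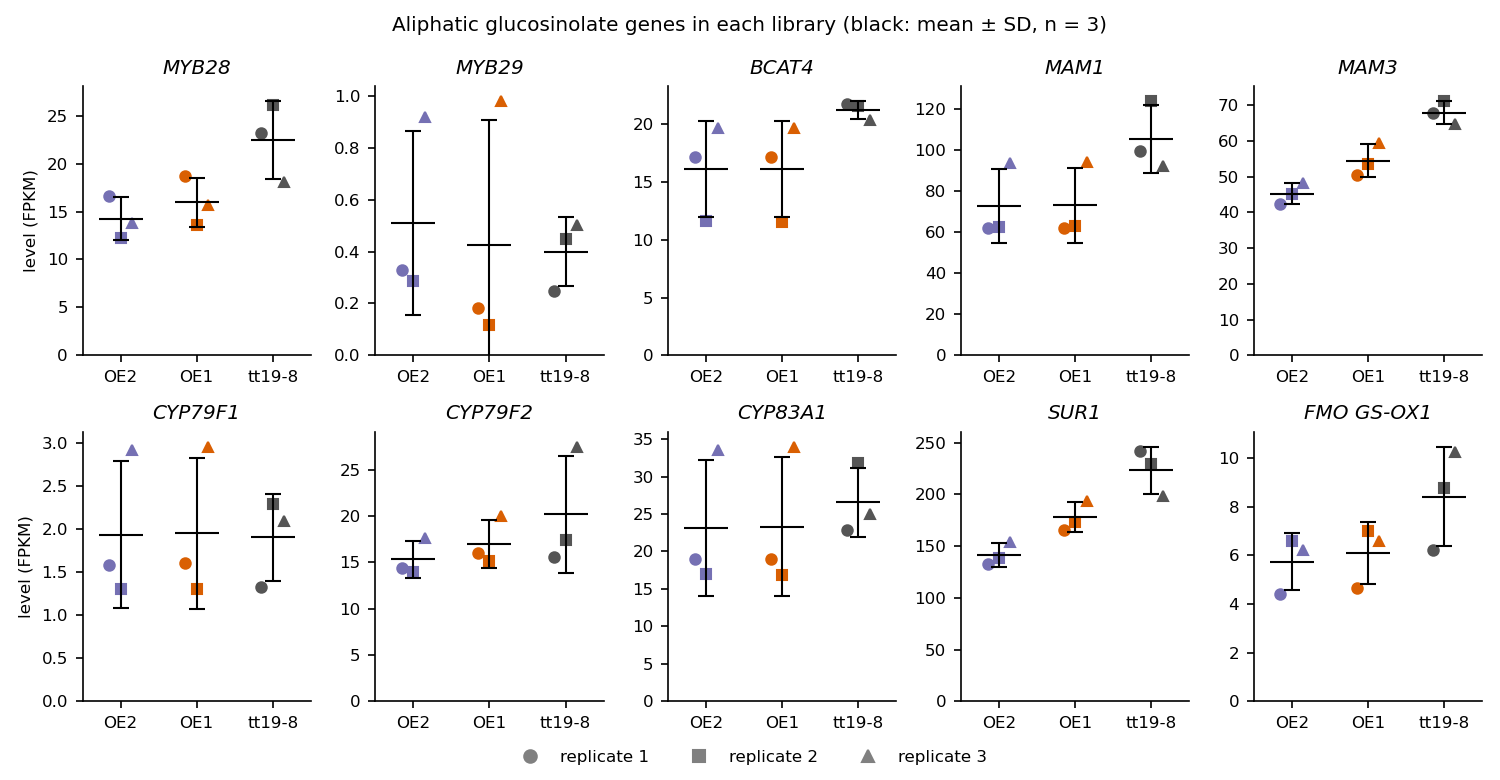
Level in FPKM (y axis, linear, from 0) of the 10 genes in each library, with OE2 left, OE1 in the middle and tt19-8 right; symbols give the replicate number and black bars the mean ± SD (n = 3). SUR1 and MAM3 show 3 separate ranges, lowest in OE2 and highest in tt19-8, while the groups overlap for CYP79F1; the lower SD bar of MYB29 in OE1 is cut off at 0.

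Of the regulators, MYB28 (AT5G61420) lies on chromosome 5 from 24689069 to 24691187 on the reverse strand (TAIR10.1, as are all positions). It had 16.7, 12.3 and 13.8 FPKM in OE2 libraries 1, 2 and 3, 18.7, 13.6 and 15.7 FPKM in OE1 libraries, and 23.2, 26.1 and 18.0 FPKM in tt19-8. Every OE2 library was under every tt19-8 library, whereas the first OE1 library exceeded replicate 3 of tt19-8. On the log2(FPKM + 1) scale, on which every change below is given, MYB28 fell in OE2 relative to tt19-8, with a change of -0.62 ± 0.19 (SE; limma, adjusted p = 0.0437), and the OE1 estimate was -0.46 ± 0.19 (limma, adjusted p = 0.224). MYB29 (AT5G07690, chromosome 5, 2446669 to 2448584, forward strand), the close relative of MYB28, was listed at 0.328, 0.285 and 0.917 FPKM in OE2, 0.184, 0.118 and 0.980 FPKM in OE1 libraries, and 0.249, 0.448 and 0.501 FPKM in tt19-8. None of these libraries reached the minimum of 1 FPKM, so MYB29 was not among the tested genes; without the minimum its changes were 0.09 ± 0.24 in OE2 and -0.02 ± 0.24 in OE1 (limma, adjusted p = 0.856 and 1.0). With the annotated exon length, the values amount to about 10.2 to 92.2 fragments in OE1 and 22.2 to 49.5 in tt19-8. Replicate 3 was the highest in all 3 groups. The coding sequences of MYB28 and MYB29 share 77.8% of aligned bases.

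Chain elongation was described by 3 genes. BCAT4 (AT3G19710, chromosome 3, 6846969 to 6849582, reverse strand), the aminotransferase that opens the pathway, had 17.1, 11.6 and 19.7 FPKM in OE2, 17.1, 11.5 and 19.7 FPKM in OE1 libraries, and 21.8, 21.6 and 20.4 FPKM in tt19-8. Both lines lay under tt19-8 without overlap. The lines themselves spread widely, with SDs of 4.13 FPKM in OE2 and 4.16 FPKM in OE1 against 0.759 FPKM in tt19-8, and the change of -0.41 ± 0.22 did not pass in OE2 (limma, adjusted p = 0.222) or, at the same rounded size, in OE1 (limma, adjusted p = 0.334). The gene overlaps AT3G19700 by 307 bases on the opposite strand, and that neighbour was listed at 0 to 0.0235 FPKM. MAM1 (AT5G23010, chromosome 5, 7703041 to 7706973, forward strand) and MAM3 (AT5G23020, chromosome 5, 7718118 to 7721866, forward strand; IMS2 in RefSeq) are methylthioalkylmalate synthases, which carry out the condensing step of elongation. MAM1 had 61.8, 62.5 and 93.4 FPKM in OE2, 62.2, 62.8 and 94.0 FPKM in OE1 libraries, and 99.6, 123.7 and 92.4 FPKM in tt19-8. Replicate 3 of each line reached the level of tt19-8 replicate 3, and the other libraries of the lines were lower. The MAM1 estimate was -0.55 ± 0.22 in OE2 (limma, adjusted p = 0.106) and -0.54 ± 0.22 in OE1 (limma, adjusted p = 0.232). MAM3 had 42.5, 45.2 and 48.2 FPKM in OE2, 50.5, 53.5 and 59.6 FPKM in OE1 libraries, and 67.8, 71.2 and 64.8 FPKM in tt19-8. Its 3 groups did not overlap. It fell in OE2, with a change of -0.58 ± 0.13 (limma, adjusted p = 0.0174), and the OE1 estimate was -0.31 ± 0.13 (limma, adjusted p = 0.234). The MAM genes are neighbours 11144 bases apart with 83.8% identical coding bases, and the MAM1 level was 1.38 to 1.94 times the MAM3 level in OE2, 1.17 to 1.58 times in OE1 and 1.43 to 1.74 times in tt19-8.

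The core pathway opens with a pair of near-identical neighbours. CYP79F1 (AT1G16410, chromosome 1, 5608682 to 5612064) converts short- and long-chain methionine derivatives, and CYP79F2 (AT1G16400, chromosome 1, 5605044 to 5607498) long-chain ones; both are on the forward strand, 1183 bases apart. Their coding sequences are identical at 1475 of 1605 aligned bases (91.9%), so how the authors assigned fragments that fit both genes bears on each value. Of the 50-base words in the CYP79F1 coding sequence 3.44% also occur in CYP79F2, and of the 100-base words 0.0659%. The stretches of 120 coding bases that are most alike, with 1 difference, and most different, with 22, are printed to show where fragments can and cannot tell the genes apart; capitals mark the differing bases, 5′ to 3′ on the forward strand (RefSeq, TAIR10.1).
CYP79F1, most alike, chr1:5609945-5610064: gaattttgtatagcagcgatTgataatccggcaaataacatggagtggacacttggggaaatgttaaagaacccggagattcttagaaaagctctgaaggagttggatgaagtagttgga
CYP79F2, most alike, chr1:5606377-5606496: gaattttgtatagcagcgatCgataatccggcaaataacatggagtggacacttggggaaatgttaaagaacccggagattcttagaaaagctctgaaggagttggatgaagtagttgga
CYP79F1, most different, chr1:5609552-5609671: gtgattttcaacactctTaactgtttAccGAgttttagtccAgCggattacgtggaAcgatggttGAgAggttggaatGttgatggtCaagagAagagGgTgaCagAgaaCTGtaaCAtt
CYP79F2, most different, chr1:5605918-5606037: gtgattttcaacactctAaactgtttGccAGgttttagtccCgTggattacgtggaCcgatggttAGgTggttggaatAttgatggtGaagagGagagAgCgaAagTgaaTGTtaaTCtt

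CYP79F1 had 1.59, 1.31 and 2.92 FPKM in OE2, 1.61, 1.31 and 2.96 FPKM in OE1 libraries, and 1.33, 2.29 and 2.10 FPKM in tt19-8. The lines enclosed the whole tt19-8 range. The change was -0.0074 ± 0.26 in OE2 (limma, adjusted p = 0.988) and -0.00024 ± 0.26 in OE1 (limma, adjusted p = 1.0), an estimate whose sign flips under other scalings. CYP79F2 had 14.4, 14.0 and 17.6 FPKM in OE2, 16.0, 15.1 and 19.9 FPKM in OE1 libraries, and 15.6, 17.4 and 27.4 FPKM in tt19-8. Its groups overlapped, with changes of -0.34 ± 0.21 in OE2 (limma, adjusted p = 0.271) and -0.20 ± 0.21 in OE1 (limma, adjusted p = 0.607). Per length, CYP79F2 stood at 6.02 to 10.7 times the CYP79F1 level in OE2, 6.74 to 11.5 times in OE1 and 7.62 to 13.1 times in tt19-8. The annotated exons span 2018 bases in CYP79F2 and 3272 in CYP79F1, and the lengths the authors divided by are not given in the sources used here, so the size of this ratio depends on them.

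CYP83A1 (AT4G13770, chromosome 4, 7990429 to 7992429, reverse strand), the aldoxime-oxidising enzyme of the aliphatic branch, had 19.0, 17.0 and 33.6 FPKM in OE2, 19.0, 16.9 and 33.9 FPKM in OE1 libraries, and 22.9, 31.8 and 25.0 FPKM in tt19-8. As for CYP79F1, the lines enclosed the tt19-8 range, through their high replicate 3. The changes were -0.24 ± 0.30 in OE2 (limma, adjusted p = 0.597) and -0.23 ± 0.30 in OE1 (limma, adjusted p = 0.677). SUR1 (AT2G20610, chromosome 2, 8877887 to 8880440, reverse strand), the carbon-sulfur lyase, was the highest of the 10 genes per length in every library. It had 132.3, 138.3 and 154.3 FPKM in OE2, 165.8, 173.5 and 194.0 FPKM in OE1 libraries, and 241.7, 229.8 and 198.2 FPKM in tt19-8. The 3 groups did not overlap, though OE1 replicate 3 and tt19-8 replicate 3 were close. SUR1 fell in OE2, with a change of -0.65 ± 0.15 (limma, adjusted p = 0.0172), and the OE1 estimate was -0.33 ± 0.15 (limma, adjusted p = 0.263). FMO GS-OX1 (AT1G65860, chromosome 1, 24498954 to 24502776, reverse strand), which oxygenates the side-chain sulfur, had 4.40, 6.60 and 6.21 FPKM in OE2, 4.63, 7.01 and 6.59 FPKM in OE1 libraries, and 6.21, 8.76 and 10.2 FPKM in tt19-8. The groups overlapped through the first tt19-8 library, and the changes were -0.47 ± 0.22 in OE2 (limma, adjusted p = 0.156) and -0.40 ± 0.22 in OE1 (limma, adjusted p = 0.335). Its coding sequence shares 85.4%, 83.1%, 78.7% and 73.2% of aligned bases with FMO GS-OX2, FMO GS-OX3, FMO GS-OX4 and FMO GS-OX5.

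The comparison of OE2 with tt19-8 called 3 of the 9 tested genes, all lower. Over all 18232 tested genes 19.0% were called, 14.5% lower and 4.5% higher (2646 and 821 genes). Scaling each library by its median ratio to the others turned this split to 1081 lower and 1237 higher genes, and of the 3 calls it left that of SUR1 (limma, adjusted p = 0.0488). Libraries lay lower without overlap for 4 of the 9 genes, the 3 called ones and BCAT4, against 27.7% of all tested genes. All 9 changes were below 0, against 65.9% of all tested genes; after the scaling CYP79F1 was above 0. The median change of the 9 genes was -0.47, beside -0.18 for all tested genes. Relative to that shift, SUR1 stood at -0.47, MYB28 at -0.43 and MAM3 at -0.39. None of the 3 calls was made without OE2 replicate 1, 2 or 3, or without tt19-8 replicate 1 or 2. Adjusted p was then 0.0745 to 0.149 for MYB28, 0.0516 to 0.0833 for MAM3 and 0.0510 to 0.0813 for SUR1 (limma). The MYB28 call also ended without OE1 replicate 1 or 3, which only enter the estimate of the spread (limma, adjusted p = 0.0515 and 0.0589). Without tt19-8 replicate 3 the changes were -0.76 for MYB28, -0.61 for MAM3 and -0.73 for SUR1 (limma, adjusted p = 0.0136, 0.00705 and 0.00463), and the count over all genes was 5967.

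The comparison of OE1 with tt19-8 called none of the 9 genes, and 3 of 18232 genes in all (0.0165%). At an unadjusted limma p under 0.05, 4 of the 9 were lower (MYB28, MAM1, MAM3 and SUR1), against 13.9% of all tested genes lower. BCAT4, MAM3 and SUR1 lay lower in every OE1 library than in any tt19-8 library, against 13.3% of all tested genes. The median change was -0.33, beside -0.11 for all tested genes, and 62.6% of all tested genes had a change below 0. Without tt19-8 replicate 3 the changes were -0.60 for MYB28, -0.63 for MAM1, -0.35 for MAM3 and -0.41 for SUR1. None of the 9 was called then either, the lowest adjusted p being 0.0503 for MYB28 (limma), while the count over all genes was 3128. The comparisons of OE2 and of OE1 with tt19-8 share the tt19-8 libraries, so their values are given side by side only.

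**Figure D2:**
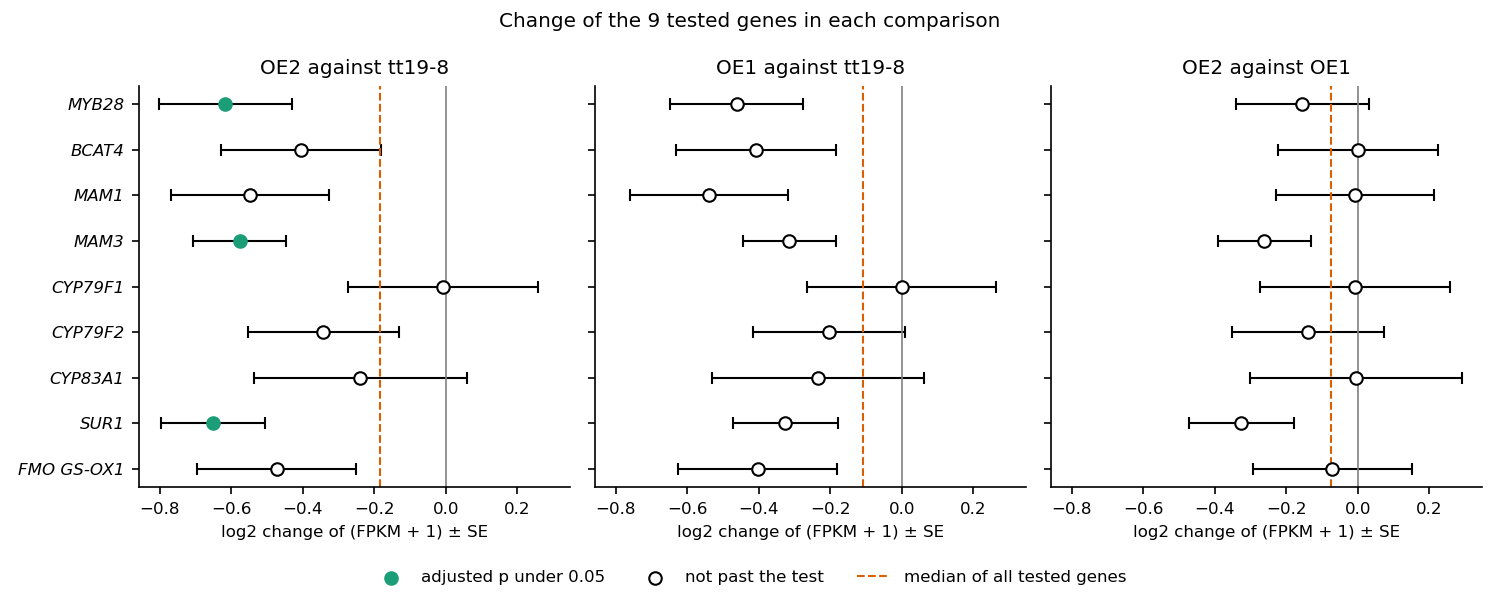
Log2 change of (FPKM + 1) with its SE (x axis) for the 9 tested genes (y axis) in OE2 against tt19-8, OE1 against tt19-8 and OE2 against OE1; filled points passed the adjusted threshold and the dashed line is the median of all tested genes. MYB28, MAM3 and SUR1 are filled in OE2 against tt19-8, at -0.62, -0.58 and -0.65, and no point is filled in the other panels.

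Promoter sequence is shown for MYB28 and SUR1, a regulator and an enzyme gene called in OE2 relative to tt19-8, as the 250 bases before the annotated start. The motifs searched on both strands were CACGTG (the G-box, which MYC factors can bind), ACCTAA and GAGAC. Capitals mark matches on either strand; the sequences read 5′ to 3′ on the gene's own strand (RefSeq, TAIR10.1).
MYB28, chr5:24691188-24691437, reverse strand: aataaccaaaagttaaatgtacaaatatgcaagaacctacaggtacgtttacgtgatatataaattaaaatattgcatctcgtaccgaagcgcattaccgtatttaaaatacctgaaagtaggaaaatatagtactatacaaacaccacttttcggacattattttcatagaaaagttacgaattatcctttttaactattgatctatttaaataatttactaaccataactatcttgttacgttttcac
SUR1, chr2:8880441-8880690, reverse strand: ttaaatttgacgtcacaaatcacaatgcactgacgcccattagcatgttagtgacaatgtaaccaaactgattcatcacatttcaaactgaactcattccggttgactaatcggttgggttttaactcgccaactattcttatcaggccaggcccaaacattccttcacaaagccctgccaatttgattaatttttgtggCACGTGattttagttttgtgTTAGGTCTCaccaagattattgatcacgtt

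The SUR1 window holds CACGTG 50 to 45 bases before the start, ACCTAA on the opposite strand at 30 to 25, and GAGAC on the opposite strand at 26 to 22, overlapping the ACCTAA match. The MYB28 window holds none of the 3 motifs. Of the 9 windows of the set searched, CACGTG occurred in 2 (SUR1 and CYP83A1), ACCTAA in 2 (SUR1 and FMO GS-OX1) and GAGAC in 2 (SUR1 and MYB29). Among 27442 windows of the same length before annotated genes, the shares were 6.49%, 13.1% and 25.8%. A match is a string of letters and was not tested as a binding site.

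Set against OE1, OE2 gave no call among the 9 genes, while 1.43% of all tested genes were called (1.39% higher and 0.0329% lower). At an unadjusted limma p under 0.05, SUR1 alone of the 9 was lower, against 6.52% of all tested genes. SUR1 and MAM3 were lower in every OE2 library than in any OE1 library, against 14.7% of all tested genes, with changes of -0.33 ± 0.15 (limma, adjusted p = 0.425) and -0.26 ± 0.13 (limma, adjusted p = 0.493). Ratios within same-numbered libraries varied far less than the levels. SUR1 stood at 0.798, 0.797 and 0.795 of its OE1 level in OE2 libraries 1, 2 and 3. MAM3 stood at 0.841, 0.844 and 0.809, MYB28 at 0.894, 0.904 and 0.879, CYP79F2 at 0.901, 0.926 and 0.882, and FMO GS-OX1 at 0.950, 0.941 and 0.942. The other 4 tested genes stayed near 1: MAM1 was at 0.994 in each pair, BCAT4 at 0.999 to 1.004, CYP79F1 at 0.987 to 1.003 and CYP83A1 at 0.990 to 1.004. For all 9 genes the 3 ratios lay within 1.05-fold of each other, as did those of 57.2% of 18111 genes. Pairing libraries of different numbers instead gave 0.635% and 0.745% of genes, and none of the 9. MYB29, under 1 FPKM throughout, was at 1.78, 2.42 and 0.936. With the replicate number as a block, 6 of the 9 genes were lower in OE2, led by SUR1 (limma, adjusted p = 6.02e-05) and MAM3 (limma, adjusted p = 0.00259), followed by MYB28, FMO GS-OX1, CYP79F2 and MAM1 (limma, adjusted p = 0.00302 to 0.0358). The same fit called 55.7% of all tested genes lower and 12.0% higher.

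**Figure D3:**
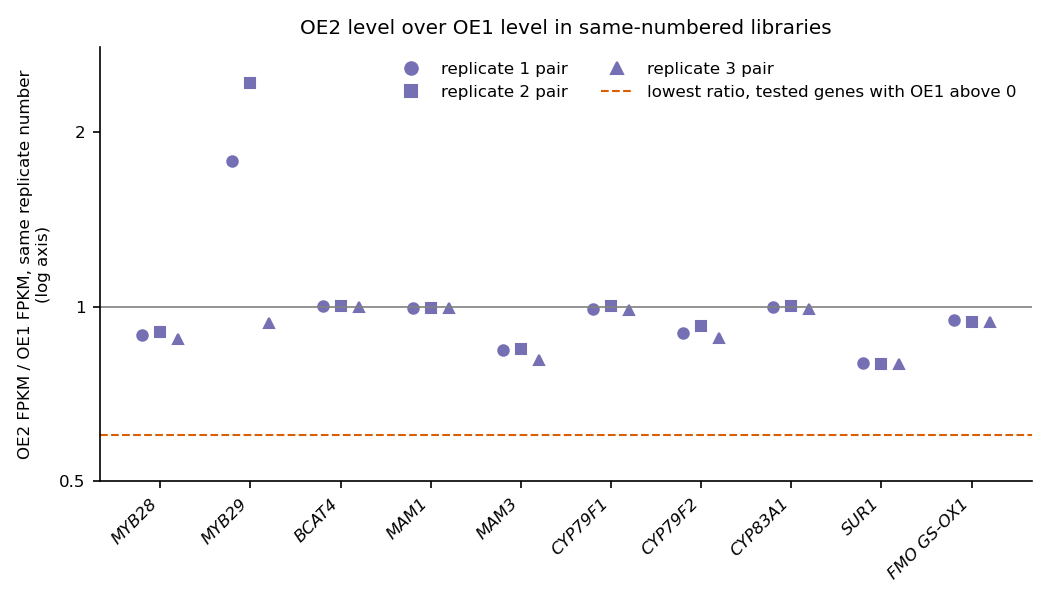
OE2 FPKM divided by OE1 FPKM in libraries of the same number (y axis, log scale) for the 10 genes (x axis), with symbols for the 3 pairs. The 3 symbols nearly coincide for the 9 tested genes, from 0.795 for SUR1 to 1.004 for BCAT4 and CYP83A1, and spread only for MYB29; the dashed line at 0.601 is the lowest ratio among tested genes with an OE1 value above 0.

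In the linked OE2 and OE1 lines the same library was the highest of its group for most of the set. Replicate 3 of OE2 was the highest of its group for 7 of the 9 tested genes, and likewise replicate 3 of OE1, against 43.8% of all tested genes in each line. The exceptions were MYB28, highest in the first library, and FMO GS-OX1, highest in the second. In tt19-8 the second library was highest for 5 of the 9, close to the 51.5% of all tested genes. The order of the groups by mean was OE2, OE1, tt19-8 from low to high for 7 of the 9 genes, and the share of all genes in this order is not given here. The exceptions were BCAT4, nearly equal in both lines, and CYP79F1, lowest in tt19-8. Among the 7, MAM1 (72.6 FPKM in OE2 and 73.0 FPKM in OE1) and CYP83A1 (23.2 and 23.3 FPKM) were also nearly equal in the lines. The steps from OE2 to OE1 exceeded the spread of the libraries for SUR1 and MAM3 only, and FPKM summed to less in OE2 than in OE1. Over the 9 libraries, of which the OE2 and OE1 libraries are linked, the profile of each gene correlated with the mean profile of the other tested members at r = 0.53 for CYP79F1 up to 0.93 for MAM1. The genes outside the set whose profile came closest to the mean of the set were AT5G66420 (r = 0.988), AT1G01930 (r = 0.984), CM3, a chorismate mutase (r = 0.982), AT2G21530 (r = 0.981), AT1G73920 (r = 0.978) and PSRP3/2 (r = 0.978). Over the 6 OE1 and tt19-8 libraries alone, their r was 0.973 to 0.992. These points share library depth and scaling: of all genes averaging at least 5 FPKM, 46.0% had r above 0.5, as did 12 of 28 other pathway genes (42.9%).

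The wider pathway was described by 36 more genes in 5 lists, of which 30 were tested. In OE2 relative to tt19-8, 2 rose and 2 fell, against 4.5% and 14.5% of all tested genes, and their median change was -0.09, beside -0.18 for all tested genes. SDI2 is a gene induced by low sulfur that is known to restrain glucosinolate synthesis. It had 11.0, 7.86 and 10.6 FPKM in OE2 and 4.26, 3.96 and 5.87 FPKM in tt19-8. This was a rise by 0.93 ± 0.25 (limma, adjusted p = 0.0312). SDI2 overlaps a neighbour by 431 bases on the opposite strand. SDI1, the highest gene of the regulator list, did not rise with SDI2. Its mean was 67.9 FPKM in OE2 and 67.35 FPKM in tt19-8. The SDI1 change was 0.036 ± 0.36 (limma, adjusted p = 0.952). NSP5, a nitrile-specifier protein that acts when glucosinolates are broken down, had 55.0, 53.4 and 70.9 FPKM in OE2 and 24.0, 23.3 and 37.1 FPKM in tt19-8, a rise by 1.08 ± 0.23 (limma, adjusted p = 0.0142). BAT5, which carries keto acids into the plastid for elongation, had 29.5, 33.8 and 35.0 FPKM in OE2 and 40.5, 56.2 and 59.2 FPKM in tt19-8, a fall with a change of -0.63 ± 0.17 (limma, adjusted p = 0.0303). BCAT3, the plastid aminotransferase that closes elongation, had 67.6, 70.8 and 73.4 FPKM in OE2 and 111.3, 132.2 and 84.1 FPKM in tt19-8, a fall with a change of -0.60 ± 0.17 (limma, adjusted p = 0.0353). Of the 30 genes, 4 lay higher and 6 lower in OE2 without overlap, the 4 called ones among them. Of all tested genes 27.7% lay lower without overlap, and the share that lay higher is not given here. Without OE2 replicate 1 or 3, or tt19-8 replicate 2, none of the 30 was called, without OE2 replicate 2 the 2 falls were not called, and without tt19-8 replicate 1 only BAT5 was. The BCAT3 call also ended without OE1 replicate 1 or when all OE1 libraries were left out of the fit, the SDI2 call with no minimum level (limma, adjusted p = 0.0549), and both falls with the replicate number as a block, although these numbers do not pair the groups. Without tt19-8 replicate 3, 4 rose and 5 fell, while 5967 of all 18128 genes tested in that fit were called. SOT17 and IPMI SSU2 were then added to the rises and FMO GS-OX2, GTR1 and TGG1 to the falls. After median-ratio scaling SDI2, MYC3 and NSP5 were called higher and none lower, and after quantile normalization SDI2 and NSP5 alone were called.

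By list, OE2 relative to tt19-8 gave 1 rise among 4 tested regulators (SDI2) and 2 falls among 6 tested elongation genes (BCAT3 and BAT5). It gave none among 8 tested genes of the core and of PAPS supply, the source of sulfate groups, none among 5 side-chain genes, and 1 rise among 7 genes of transport and breakdown (NSP5). In OE1 none of the 30 was called, against 0.0165% of all tested genes, and at an unadjusted limma p under 0.05 MYC3, BCAT3 and SOT18 were lower, 3 of 30 against 13.9% of all tested genes. Without tt19-8 replicate 3, IPMI SSU2 was called higher and BCAT3 lower in OE1, beside 782 higher and 2346 lower calls among all 18128 genes. Between OE2 and OE1 only MYC3 was called among the 30, as higher. The call was not made when any single OE2 or OE1 library was left out or with a minimum of 5 FPKM. MYC4, of the regulator list, averaged 1.02 FPKM in OE2 and 0.392 FPKM in OE1 and did not meet the minimum for testing. With no minimum MYC4 was called higher too, by 0.53 ± 0.082 (limma, adjusted p = 0.0189). With the replicate number as a block, which pairs these libraries, 6 of the 30 were higher (MYC3, SDI2, NSP5, APK1, SOT17 and GGP1) and 13 lower, BAT5, BCAT3 and TGG1 among them, against 12% higher and 55.7% lower of all tested genes. By the mean over the 9 libraries, the highest genes of the lists per length were SDI1 among regulators, IIL1 in elongation, APK2 in the core, GSL-OH in the side chain and the myrosinase TGG1 in breakdown. TGG1 had 564 to 735 FPKM in OE2, 654 to 877 FPKM in OE1 and 784 to 1103 FPKM in tt19-8. MYB76, 1442 bases from MYB29, was listed at 0 to 0.000991 FPKM in OE2, 0 in OE1 and 0 to 0.0231 FPKM in tt19-8. AOP2, annotated as a transcribed pseudogene, and AOP3 did not reach 1 FPKM in any library.

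**Figure D4:**
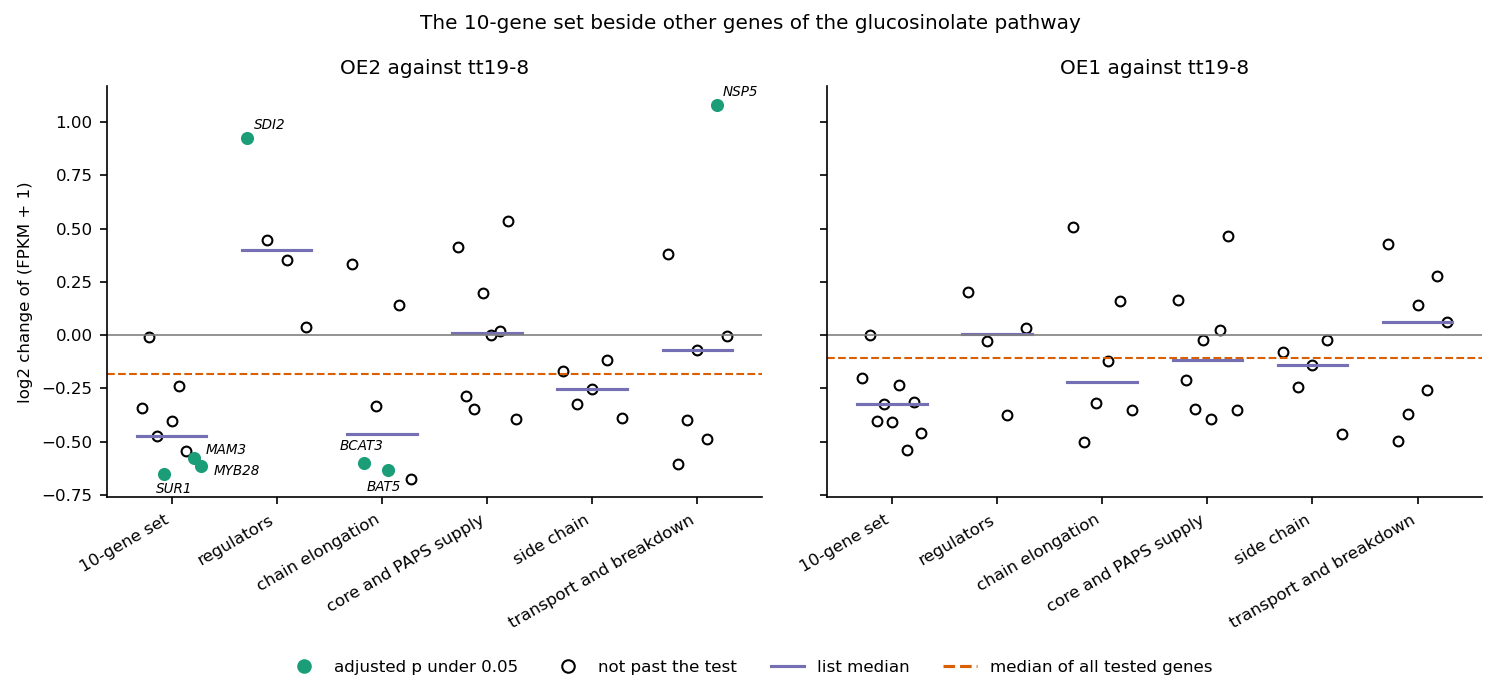
Log2 change of (FPKM + 1) (y axis) of each tested gene, by list (x axis), in OE2 against tt19-8 and OE1 against tt19-8; filled points passed the adjusted threshold, short bars are list medians and the dashed line the median of all tested genes. In OE2 the 10-gene set has 3 filled points, all low, and a median of -0.47; the other lists have 2 high and 2 low filled points.

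Of 11 indole glucosinolate genes, all tested, 3 fell in OE2 relative to tt19-8, against 14.5% of all tested genes, with changes of -0.56 for CYP79B2, -0.72 for CYP79B3 and -0.68 for CYP81F2 (limma, adjusted p = 0.0226, 0.0155 and 0.0418). None was called in OE1 or between the lines. How these calls, and those of the markers below, depend on scaling or on single libraries was not examined.

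In OE2 relative to tt19-8, 6 of 9 root markers fell (EXPA7, COBL9, RSL4, RHS13, RHS19 and ADF8), with changes of -1.11 to -0.68, against 14.5% of all tested genes. The other root markers did not pass, with changes of -0.46 for EXPA18, -0.31 for CASP2 and 0.11 for CASP1. None was called in OE1, where 7 of 9 were lower at an unadjusted limma p under 0.05, against 13.9% of all tested genes, and CASP1 was at 0.48. Their summed level was 240 to 339 FPKM in OE2, 297 to 420 FPKM in OE1 and 256 to 350 FPKM in tt19-8, a sum led by CASP1. None of 8 green shoot markers was called in either comparison, with sums of 22834 to 30689 FPKM in OE2, 27698 to 38607 FPKM in OE1 and 29285 to 32035 FPKM in tt19-8. No root or shoot marker was at 0 in any library. None of 5 tested seed markers was called; the 7 markers summed to 24.1 to 77.6 FPKM in OE2, 3.26 to 75.0 FPKM in OE1 and 100 to 616 FPKM in tt19-8, and CRU2 and SESA3 were listed at 0 in all OE1 libraries. In whole seedlings, fewer cells of a type and less RNA per cell cannot be told apart. The part of these markers in the values of MYB28, MAM3 and SUR1 was not tested.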

How the data were processed

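Whole seedlings were profiled by RNA sequencing, with 1 deposited table of FPKM per library. The authors' values are FPKM for 33602 genes, as the files' values show; the submitters' processing notes list edgeR, HISAT 0.1.6 and TAIR10 but no role for any. Gene lengths, strandedness and filters are not given in the sources used here. Names and positions are from RefSeq TAIR10.1, which matched 32835 identifiers and all listed genes.

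FPKM cannot enter a count test. limma 3.58.1 (R 4.3.3) was fitted to log2(FPKM + 1) over 18232 genes that reached 1 FPKM in 3 or more of the 9 libraries, with 1 term per group, trend and robust eBayes, Benjamini-Hochberg adjustment within each comparison and a threshold of 0.05. The pseudocount of 1 shrinks changes of low genes. The fit was run on simulated data with independent noise in each library and changes planted in OE1 alone. That run cannot show how the p-values behave when OE2 and OE1 libraries are linked. Python 3.11.15, numpy 2.4.6, pandas 2.3.3, Biopython 1.88 and matplotlib 3.10.9 made the other tables and plots.

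Genes named are the 10 members and pathway-list genes that passed or were highest. Indole genes that passed and the 6 genes most like the set's mean profile are named too. SOT18, MYB76, MYC4, AOP2, AOP3, SOT17, APK1 and GGP1 are exceptions chosen after their values were seen. So are FMO GS-OX2, GTR1, IPMI SSU2 and the seed and root markers named. Members and lists were chosen with earlier results of these data known. Replicate numbers pair OE2 with OE1, since every same-numbered correlation of deviations exceeded 0.1 (0.953, 0.959 and 0.957); the labels state no pairing, and neither line pairs with tt19-8. Alternatives covered filters, pseudocounts, scaling, groups in the fit, the block and each library left out. The promoter window of 1 gene of the set is not reported here.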

Additional observations from a re-analysis of the deposited data

Results flagged for a closer look

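MYC3, a basic helix-loop-helix factor that works with MYB28, drew attention because its level differed between the lines. It had 7.98, 8.00 and 7.65 FPKM in OE2 libraries 1, 2 and 3, 4.33, 4.49 and 4.26 FPKM in OE1 libraries, and 6.81, 5.52 and 5.60 FPKM in tt19-8. The change in OE2 relative to OE1 was 0.73 ± 0.14 on the log2(FPKM + 1) scale (limma, adjusted p = 0.0350), higher in 3 of 3 same-numbered pairs, which are not independent. The call was not made when any single OE2 or OE1 library was left out, or with a minimum of 5 FPKM, and it was made with the replicate number as a block. None of the 9 tested genes of the set met a criterion for a closer look.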

How the results depend on the processing

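In OE1 against tt19-8, none of the 9 genes was called under any alternative run. The count over all genes was 0 with a minimum of 5 FPKM, with a pseudocount of 0.1 and with only the 2 groups in the fit, 15 with the replicate block, and 1823 with only OE1 and tt19-8 and without tt19-8 replicate 3, an alternative chosen after seeing the data; leaving out each library in turn gave 0 to 3128. In OE2 against tt19-8, the calls among the 9 genes numbered 1 after median-ratio scaling, 0 after quantile normalization and 0 with the replicate block, whose numbers do not pair OE2 with tt19-8; leaving out each library gave 0 to 3. Over all genes it was 1922 after quantile normalization, 6095 with only OE2 and tt19-8 and without tt19-8 replicate 3, where MAM1 was also called (4 genes), and 530 to 5967 with each library left out. MYB28 was also lost with no minimum (limma, adjusted p = 0.0610) and with only the 2 groups (0.0563). In OE2 against OE1, the replicate block, which pairs linked libraries, gave 6 of the 9 and 12031 of all genes, and changed no other call among the 9; no minimum gave 535, a minimum of 5 FPKM 88, a pseudocount of 0.1 146 and median-ratio scaling 397. Leaving out each library gave 0 of the 9, and 49 to 467 of all genes.

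Signs turned only for changes that were not called as reported; of these, MAM1 and FMO GS-OX1 were called in OE2 against OE1 with the replicate block. In OE1 against tt19-8, CYP79F1 was at 0.0054 with a pseudocount of 5, 0.078 after median-ratio scaling, 0.049 after quantile normalization, 0.053 without tt19-8 replicate 3, and -0.23 to 0.16 over the libraries left out; CYP79F2 was at 0.030 without tt19-8 replicate 3 and ranged from -0.36 to 0.030. In OE2 against tt19-8, CYP79F1 was at 0.0021 with a pseudocount of 5, 0.12 after median-ratio scaling, 0.046 without tt19-8 replicate 3 and -0.23 to 0.15 over the libraries left out, and CYP83A1 was at 0.017 after quantile normalization. In OE2 against OE1, median-ratio scaling gave MAM1 0.060, CYP79F1 0.039 and CYP83A1 0.063, and quantile normalization gave MAM1 0.19 and CYP83A1 0.13. The ranges over libraries left out were -0.21 to 0.21 for BCAT4, -0.20 to 0.19 for MAM1, -0.23 to 0.22 for CYP79F1, -0.29 to 0.29 for CYP83A1 and -0.23 to 0.081 for FMO GS-OX1. The cause of these shifts was not tested. Depth is unknown for OE2, and MYB29 was under the minimum in all libraries.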
